A study of Rattus norvegicus with 6 samples.

Results

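Genes of macrophages and Fc receptors were followed in the kidney of rats fed an amino acid-rich diet or normal chow. They were taken by name from the gene symbols of the transcript tables, with no measured value in the rule, and make up 10 of the 17051 genes listed. The choice was made with earlier results of these data known. Csf1r encodes the receptor for macrophage growth factors. Fcer1g and Tyrobp encode signaling adaptors, and Fcgr2b encodes an inhibitory IgG receptor. Mrc1, Cd163 and Itgam encode receptors for sugars, hemoglobin and complement, and Cd68, Laptm5 and Aif1 encode proteins inside the cell.

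Macrophages live between the tubules and around the vessels of the healthy kidney, where they take up debris and immune complexes. Fc receptors bind the constant part of antibodies. The activating ones signal through an adaptor that carries an immunoreceptor tyrosine-based activation motif (ITAM), which is phosphorylated by Src family kinases and then recruits the kinase Syk. The inhibitory receptor Fcgr2b carries the opposing motif and recruits phosphatases. Survival of tissue macrophages depends on Csf1r and its ligands Csf1 and Il34, and many genes of the lineage are controlled by the transcription factor PU.1, encoded by Spi1.

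All rats were male Sprague Dawley rats. The AL group (rats 61, 71 and 88) ate standard laboratory chow without restriction, and the HD group (rats 64, 67 and 69) ate chow mixed with a hyperammonemic amino acid preparation, modeled on hemoglobin, with a daily amount of 3 g per kg of body weight. Each diet lasted 7 days, and the rats had no liver disease. The study assigned 8 rats to each diet, and 3 of each were analysed here. Age was not given in the sources used here. Poly(A)-selected RNA of kidney tissue was sequenced as single reads of 100 bases, 1 library per rat.

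Estimated counts summed to between 12499945 (rat 64) and 30466461 (rat 69) per rat. Levels are given as CPM, counts scaled to library size, after TMM scaling for the makeup of the library, with the SD over 3 rats. Tubule markers were abundant in both groups, with Umod at 3564 ± 144 CPM in the AL group and 3273 ± 700 CPM in the HD group, and Aqp2 at 734 ± 99.4 and 709 ± 70.3 CPM. The tissue was not sorted, so fewer macrophages and less RNA per macrophage cannot be told apart.

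Because PU.1 controls much of this lineage, the promoters of the genes were searched for its core site, GAGGAAG, and for the reverse complement CTTCCTC. RefSeq promoters of build GRCr8, with 250 bases before and 50 bases after the start of the gene, were at hand for 6 of the 10 genes. Of these, 5 held the site (Itgam, Laptm5, Mrc1, Csf1r and Cd68) and Cd163 did not. Among all 33469 promoters in the table, 12.4% held it. A match describes letters only and says nothing about binding. The stretches just before the start are shown for the surface receptors Mrc1 and Itgam and for Laptm5, with each match in capitals, read 5′ to 3′ on the + strand. They lie at chr5:148371780-148371879 (Laptm5), chr17:82157625-82157724 (Mrc1) and chr1:192089392-192089591 (Itgam).
Laptm5: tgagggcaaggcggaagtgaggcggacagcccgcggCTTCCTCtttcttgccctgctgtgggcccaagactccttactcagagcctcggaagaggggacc
Mrc1: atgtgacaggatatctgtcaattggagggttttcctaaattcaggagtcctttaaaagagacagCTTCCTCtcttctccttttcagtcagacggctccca
Itgam: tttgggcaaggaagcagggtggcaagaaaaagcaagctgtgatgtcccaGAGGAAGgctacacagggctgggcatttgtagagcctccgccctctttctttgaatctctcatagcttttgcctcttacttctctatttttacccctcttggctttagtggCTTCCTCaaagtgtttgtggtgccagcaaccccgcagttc
Counted from the start of the gene, the match began at base -64 in Laptm5 and at base -36 in Mrc1, in both on the opposite strand. Itgam held a match on each strand, at -151 and -40. The Csf1r match began at -230, and that of Cd68 at base 5 of the transcript.

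Of the 10 genes, 8 reached the count of 30 in at least 1 rat that was needed for testing, and the fitted level of each of these 8 was lower with the HD diet. Over the 8 genes the median log2 fold change (HD minus AL) was -1.34, against 0.0067 over all 11553 genes tested, of which 48.7% were lower. In edgeR's quasi-likelihood test, 6 of the 8 genes had an unadjusted *P* below 0.05 in the lower direction, a mark that 5.94% of all tested genes passed. After Benjamini-Hochberg adjustment over all genes none of the 8 passed 0.05, and neither did any gene of the table (0%). With DESeq2, 7 of the 8 genes had an unadjusted *P* below 0.05 (6.77% of all tested genes in the lower direction), and Aif1 and Fcer1g passed the adjusted threshold, as 0.77% of all genes did in the lower direction. For Aif1, Fcer1g and Tyrobp every HD rat lay below every AL rat, a separation shown by 7.01% of all tested genes. An exact permutation test of 3 against 3 rats cannot give a two-sided *P* below 0.1, and these 3 genes reached that value. Itgam passed the minimum only through rat 71 of the AL group. Over the other 7 genes the median was -1.46, and over all 10 genes without a minimum it was -1.19. All 10 estimates were then negative. Those of Cd163 (-0.26, standard error 0.99) and Fcgr2b (-0.48, standard error 0.99) were smaller than their standard errors and give no direction. The share of all genes lower without a minimum was not taken.

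**Figure D1:**
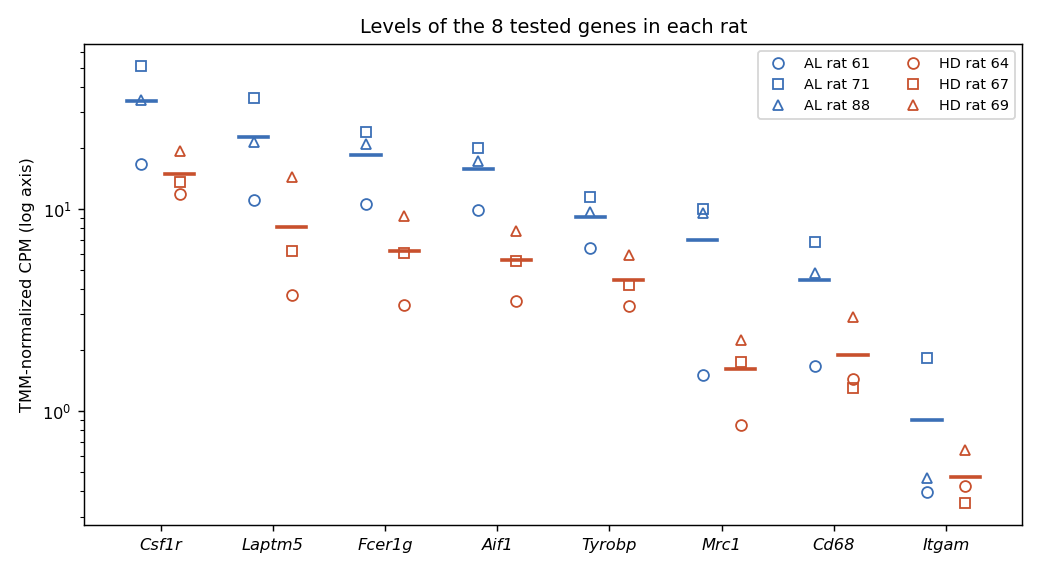
Level of the 8 tested genes in each rat, in TMM-normalized CPM on a log axis, with open symbols for single rats (blue AL, orange HD) and bars for group means. Rat 71 of the AL group was the highest rat for all 8 genes, and rat 61 of the AL group lay near the HD rats for Mrc1 and Cd68.

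Csf1r, on chromosome 18 of build rn5 (55662900 to 55689297, + strand), was the most counted of the 10 genes. It stood at 16.6, 51.0 and 34.7 CPM in rats 61, 71 and 88 of the AL group and at 11.8, 13.5 and 19.4 CPM in rats 64, 67 and 69 of the HD group. The groups overlapped, since rat 61 lay below rat 69. The means were 34.1 ± 17.2 and 14.9 ± 3.98 CPM (log2 fold change -1.19, standard error 0.39, edgeR adjusted *P* = 0.406, exact permutation *P* = 0.2). The ligand genes, picked for their role after their values were seen, had log2 fold changes nearer to 0. Il34, the ligand made by epithelial cells, stood at 59.8 ± 1.83 CPM in the AL group and 58.9 ± 3.28 CPM in the HD group (log2 fold change -0.02, standard error 0.099, edgeR adjusted *P* = 0.967). Csf1 stood at 14.8 ± 6.23 and 10.3 ± 2.72 CPM (log2 fold change -0.51, standard error 0.34, edgeR adjusted *P* = 0.654). Whether the receptor differed from its ligands was not tested.

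Fcer1g, the ITAM adaptor shared by the high-affinity IgE receptor and the activating IgG receptors, lies on chromosome 13 of rn5 (94228759 to 94233191, - strand). It stood at 10.6, 24.1 and 21.0 CPM in the AL rats and at 3.36, 6.05 and 9.24 CPM in the HD rats. No HD rat reached an AL rat, although rat 69 and rat 61 were close. The AL mean of 18.6 ± 7.10 CPM was 2.98 times the HD mean of 6.22 ± 2.94 CPM (log2 fold change -1.55, standard error 0.42, edgeR adjusted *P* = 0.398, exact permutation *P* = 0.1). In DESeq2 the adjusted *P* was 0.022.

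Tyrobp, the ITAM adaptor of Trem2 and related receptors, lies on chromosome 1 of rn5 (90031123 to 90034973, + strand). Its levels were 6.43, 11.4 and 9.6 CPM in the AL rats and 3.31, 4.2 and 5.88 CPM in the HD rats. In CPM the groups again did not overlap, with rat 61 the lowest of the AL rats and rat 69 the highest of the HD rats. In TPM, which is scaled to transcript length and library size without TMM, they did overlap, with rat 69 at 19.8 and rat 61 at 19.3. The means of 9.15 ± 2.52 and 4.46 ± 1.31 CPM differed by a log2 fold change of -1.02 (standard error 0.31, edgeR adjusted *P* = 0.405, exact permutation *P* = 0.1). Nphs1, the nephrin gene of podocytes, begins 42.9 kb after the end of Tyrobp. It was higher in every HD rat, at 11.5 ± 2.15 CPM in the AL group and 58.6 ± 16.4 CPM in the HD group (edgeR adjusted *P* = 0.098, DESeq2 adjusted *P* = 1.73e-15). The levels of Tyrobp and Nphs1 thus differed in opposite directions.

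Fcgr2b, the inhibitory IgG receptor, lies 246 kb from Fcer1g on chromosome 13 of rn5 (93968431 to 93983019, - strand). It had 2, 16 and 2 counts in the AL rats and 0, 5 and 16 counts in the HD rats, too few for the test. Rats 71 and 69 held most of these reads, 1 of each group. The 0 in rat 64 allows up to 3 counts, or 0.255 CPM, counting error only. Without the minimum its log2 fold change was -0.48 (standard error 0.99, edgeR adjusted *P* = 0.91). The IgG receptor genes resemble each other in sequence, so the division of reads among them is uncertain.

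The activating partners of the adaptors were also lower. Of 11 other Fc receptor genes listed, 5 could be tested and 4 were lower, 3 of them with an unadjusted *P* below 0.05 and none after adjustment in edgeR or DESeq2. Fcgr2a stood at 7.0 ± 3.62 CPM in the AL group and 1.92 ± 1.28 CPM in the HD group (log2 fold change -1.81). Fcgr3a stood at 4.64 ± 1.59 and 2.16 ± 0.643 CPM (-1.08), and Fcgr1a, the high-affinity IgG receptor, at 4.62 ± 2.17 and 2.0 ± 0.997 CPM (-1.18). The groups did not overlap for Fcgr2a and Fcgr3a. The exception was Fcgrt, the neonatal Fc receptor, which epithelial and endothelial cells use to carry IgG and albumin. Its level was 135 ± 10.8 CPM in the AL group and 152 ± 1.89 CPM in the HD group (log2 fold change 0.18, standard error 0.10, edgeR adjusted *P* = 0.617), and every HD rat lay above every AL rat. Fcer1a, the IgE-binding chain, had 0 counts in every rat, which allows up to 3 in each.

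Further along the ITAM pathway, 12 of 14 tested genes were lower, 5 with an unadjusted *P* below 0.05, and the list median was -0.56, or -0.16 without rat 71. Trem2, which is among the 5, reached the minimum count only in rat 71 of the AL group. Trem2, a lipid-sensing receptor that signals through Tyrobp, had 8, 46 and 19 counts in the AL rats and 1, 2 and 15 in the HD rats (log2 fold change -2.54, standard error 0.79, edgeR adjusted *P* = 0.406). Clec7a, a receptor for fungal glucans, was at 4.12 ± 1.19 and 1.55 ± 0.524 CPM (-1.39). The scaffold Lcp2 had a log2 fold change of -1.47 and the exchange factor Vav1 one of -1.74. No HD rat reached an AL rat for these 4 genes, which have the smallest unadjusted *P* of the list. Of the 14 tested genes 5 were lower without overlap, against 7.01% of all tested genes. The kinase Syk, named for its role after its values were seen, was at 11.7 ± 3.35 and 9.27 ± 2.74 CPM (-0.33, edgeR adjusted *P* = 0.755). On the inhibitory side, 8 of 10 genes were lower and 1, the adaptor Dok2, had an unadjusted *P* below 0.05 (log2 fold change -1.05), while the list median was -0.78 (-0.495 without rat 71), with 1 gene of the 10 at the minimum count only in the HD group. The phosphatase Ptpn6, also named after its values were seen, was at 35.6 ± 0.441 and 35.5 ± 1.18 CPM (-0.0070, standard error 0.10).

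Mrc1, the mannose receptor of resident macrophages and some endothelia, showed the largest fold difference of the 8 tested genes. It lies on chromosome 17 of rn5 (83099574 to 83180475, + strand). Its levels were 1.51, 9.98 and 9.53 CPM in the AL rats and 0.849, 1.75 and 2.24 CPM in the HD rats. Rats 71 and 88 were far above the rest, and rat 61 lay among the HD rats, below rats 67 and 69. The means of 7.01 ± 4.77 and 1.61 ± 0.705 CPM differed by a log2 fold change of -2.08 (standard error 0.68, edgeR adjusted *P* = 0.406, exact permutation *P* = 0.3).

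Cd163, the scavenger receptor for hemoglobin bound to haptoglobin, is on chromosome 4 of rn5 (223769351 to 223802725, + strand). It was barely detected, with 1, 6 and 1 counts in the AL rats and 0, 5 and 4 in the HD rats, and no difference was detectable at this depth.

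Itgam encodes CD11b, the alpha chain of complement receptor 3, and lies on chromosome 1 of rn5 (206522889 to 206573171, + strand). It was low as well, at 0.397, 1.83 and 0.463 CPM in the AL rats and 0.424, 0.35 and 0.639 CPM in the HD rats. Only rat 71 stood apart, with 33 counts, and the other 5 rats overlapped (log2 fold change -0.92, standard error 0.71, edgeR adjusted *P* = 0.712). Its partner chain Itgb2, which other leukocyte integrins share, was at 24.1 ± 4.79 CPM in the AL group and 23.6 ± 1.73 CPM in the HD group (-0.03, standard error 0.17, edgeR adjusted *P* = 0.977).

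Aif1 encodes an actin-binding calcium sensor widely used as a macrophage and microglia marker, and lies on chromosome 20 of rn5 (7234609 to 7236508, - strand). Its levels were 9.85, 20.0 and 17.3 CPM in the AL rats and 3.48, 5.5 and 7.77 CPM in the HD rats. The groups did not overlap. The means were 15.7 ± 5.24 and 5.58 ± 2.15 CPM, and the adjusted *P* was the smallest of the 8 genes (log2 fold change -1.47, standard error 0.36, edgeR adjusted *P* = 0.375, exact permutation *P* = 0.1). In DESeq2 the adjusted *P* was 0.0129.

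Laptm5, a lysosomal membrane protein of blood-derived cells, lies on chromosome 5 of rn5 (152749594 to 152771632, + strand). It stood at 11.1, 35.3 and 21.5 CPM in the AL rats and 3.73, 6.18 and 14.4 CPM in the HD rats. Rat 69 of the HD group lay above rat 61 of the AL group. The means were 22.6 ± 12.1 and 8.09 ± 5.56 CPM (log2 fold change -1.46, standard error 0.56, edgeR adjusted *P* = 0.427, exact permutation *P* = 0.2).

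Cd68, a heavily glycosylated protein of endosomes and lysosomes, lies on chromosome 10 of rn5 (56014364 to 56016243, - strand). It stood at 1.67, 6.87 and 4.83 CPM in the AL rats and 1.44, 1.3 and 2.91 CPM in the HD rats. Rat 61 was again within the HD range. The means were 4.46 ± 2.62 and 1.88 ± 0.891 CPM (log2 fold change -1.22, standard error 0.56, edgeR adjusted *P* = 0.495, exact permutation *P* = 0.2).

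**Figure D2:**
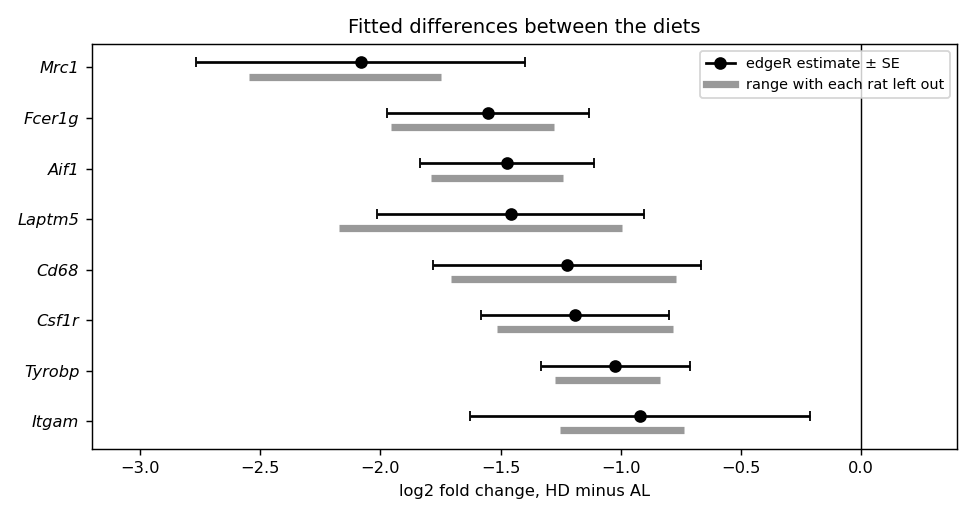
Log2 fold change (HD minus AL) of the 8 tested genes, with points and thin bars for the edgeR estimate ± standard error and gray bars for the range when each rat is left out in turn. All estimates lie below 0, from -2.08 for Mrc1 to -0.92 for Itgam.

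To compare the genes with each other, TPM values, which are scaled to transcript length, were used. In the AL group the genes ranked by mean TPM as Fcer1g (51.3), Aif1 (41.6), Tyrobp (31.0), Laptm5 (18.1), Csf1r (15.1), Cd68 (6.29), Mrc1 (2.25), Fcgr2b (0.483), Itgam (0.43) and Cd163 (0.063). The short adaptor transcripts thus ranked above Csf1r on this scale, although Csf1r had the most counts. In the HD group Fcer1g was at 16.2 TPM, Tyrobp at 14.3, Aif1 at 13.9, Csf1r at 6.12 and Laptm5 at 6.09. The step from Fcer1g to Aif1 was seen in 6 of 6 rats, though narrowly in rat 64 (8.44 and 8.38 TPM). That from Tyrobp to Laptm5 was also seen in 6 of 6. Aif1 was above Tyrobp in 5 rats (3 AL and 2 HD), and Laptm5 was above Csf1r in 4 (3 AL and 1 HD). Differences between genes on this scale were not tested. Fcgr2b was above Itgam in 4 rats.

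The genes varied together over the rats. Over the 28 pairs of tested genes, Pearson's r of the log2 levels in the 6 rats ranged from 0.62 to 0.998 with a median of 0.931, and the 21 pairs without Itgam were at 0.884 or above. These values describe 6 rats that share 2 diets and carry no test. Rat 71 was highest for 8 of the 8 genes, rat 64 was lowest for 6 and rat 67 for the other 2. Rat 61 had 15.5% (Mrc1) to 61.2% (Tyrobp) of the mean level of rats 71 and 88, and lay above rat 69 for 3 of the 8 genes. Total estimated counts rose from rat 61 to 88 to 71 in the AL group and from rat 64 to 67 to 69 in the HD group. Within each diet Csf1r, Mrc1, Fcer1g, Tyrobp, Laptm5 and Aif1 rose in the same order. Cd68 and Itgam did so in the AL group only. Whether depth had a part in these levels was not tested.

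Relative to Csf1r in the same rat, the other 7 tested genes were compared between the diets by the exact permutation test, which cannot go below 0.1 here. The log2 ratio of Mrc1 to Csf1r was -2.56 ± 0.816 with the AL diet and -3.29 ± 0.45 with the HD diet, and that of Fcer1g was -0.82 ± 0.229 and -1.34 ± 0.397. Two-sided exact *P* values ran from 0.2 to 0.9 over the 7 ratios, and adjusted values from 0.56 to 0.9.

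The number of genes past the unadjusted mark depended on single rats. Without rat 61, 7 of the 8 genes had an unadjusted *P* below 0.05 (8.59% of all tested genes), 7 did not overlap between the groups (17.4% of all), and the median was -1.66. Without rat 71, 3 genes had an unadjusted *P* below 0.05 (3.53% of all) and the median was -0.996, with Itgam no longer testable. The log2 fold changes of Csf1r, Cd68 and Laptm5 were then -0.79, -0.77 and -0.996. Without rat 64 the number was also 3 (2.85% of all). Leaving out rat 69 gave 7 genes (9.35% of all), and the groups then did not overlap for 6 genes (16.6% of all). Aif1, Fcer1g and Tyrobp kept an unadjusted *P* below 0.05 whichever rat was left out.

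Other genes of macrophages and monocytes were lower as well, with 20 of 23 tested genes lower, 12 of them with an unadjusted *P* below 0.05, and a median log2 fold change of -1.28, or -0.708 without rat 71. Of the 23, 3 reached the minimum only in the AL group and 1 only in the HD group. The 3 higher genes were Hmox1 (log2 fold change 0.56), Mertk (0.44) and Pla2g7 (0.38), with 0 of them at an unadjusted *P* below 0.05. Mertk was at 8.86 ± 2.52 CPM in the AL group and 12.1 ± 1.82 CPM in the HD group. Every HD rat lay above every AL rat for Mertk (edgeR adjusted *P* = 0.61). Lyz2, the lysozyme of macrophages, was at 220 ± 125 CPM in the AL group and 44.3 ± 21.9 CPM in the HD group (-2.31, edgeR adjusted *P* = 0.368, DESeq2 adjusted *P* = 0.0213). The protease Ctss was at 24.8 ± 10.0 and 10.7 ± 1.19 CPM (-1.21, DESeq2 adjusted *P* = 0.0271). The lectin Clec10a was at 8.85 ± 4.27 and 1.76 ± 1.40 CPM (-2.27, DESeq2 adjusted *P* = 0.0162). The sialic acid receptor Siglec1 had a log2 fold change of -2.27 (DESeq2 adjusted *P* = 0.112). In edgeR the adjusted *P* of each of these 3 genes was 0.398. Of the 23 tested genes, 3 passed the adjusted threshold in DESeq2, against 0.77% of all genes in the lower direction. Siglec1 is 1 of the 3 genes that reached the minimum only in the AL group (7, 55 and 31 counts against 5, 9 and 10). The groups did not overlap for Lyz2, Ctss, Clec10a and Siglec1, which have the smallest unadjusted *P* of the list. Of the 23 tested genes 6 were lower without overlap, against 7.01% of all tested genes. Emr1, the gene of the F4/80 antigen, was at 1.19, 18.6 and 4.1 CPM in the AL rats and 1.02, 1.15 and 2.62 CPM in the HD rats, so its mean rested on rat 71 (-2.28, edgeR adjusted *P* = 0.455).

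Of the 5 tested subunits and partners of the phagocyte oxidase, 4 were lower, each with an unadjusted *P* below 0.05. Ncf1 was at 12.4 ± 5.53 and 6.0 ± 1.99 CPM (-1.04), Ncf4 had a log2 fold change of -1.38 and Rac2 one of -1.21. Cyba, which tubule cells also use, was higher in each HD rat (37.9 ± 4.20 and 54.9 ± 14.8 CPM, 0.53). Its edgeR *P* was also below 0.05 before adjustment (0.028) and 0.419 after it. The edgeR adjusted *P* of the 4 lower genes was 0.406 to 0.4215.

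Growth factor and transcription factor genes of the lineage were divided, with 7 of 14 lower and 7 higher, 1 gene having reached the minimum count only in the HD group. Their median was 0.07, and -0.0059 with library size as the only scaling. Irf5 (-1.0) and Irf8 (-1.44) were lower, while Cebpa (0.74), Csf2rb (0.67) and Tfec (0.59) were higher, each with an unadjusted *P* below 0.05 and an edgeR adjusted *P* of 0.398 to 0.453. Csf2rb, the shared chain of the GM-CSF receptor family, was at 156 ± 4.85 CPM in the AL group and 248 ± 65.4 CPM in the HD group, with no overlap. Spi1, which encodes PU.1 and was named for its role, was at 2.94, 5.65 and 2.78 CPM in the AL rats and 1.53, 1.4 and 3.04 CPM in the HD rats, with overlap (-0.91, edgeR adjusted *P* = 0.525).

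**Figure D3:**
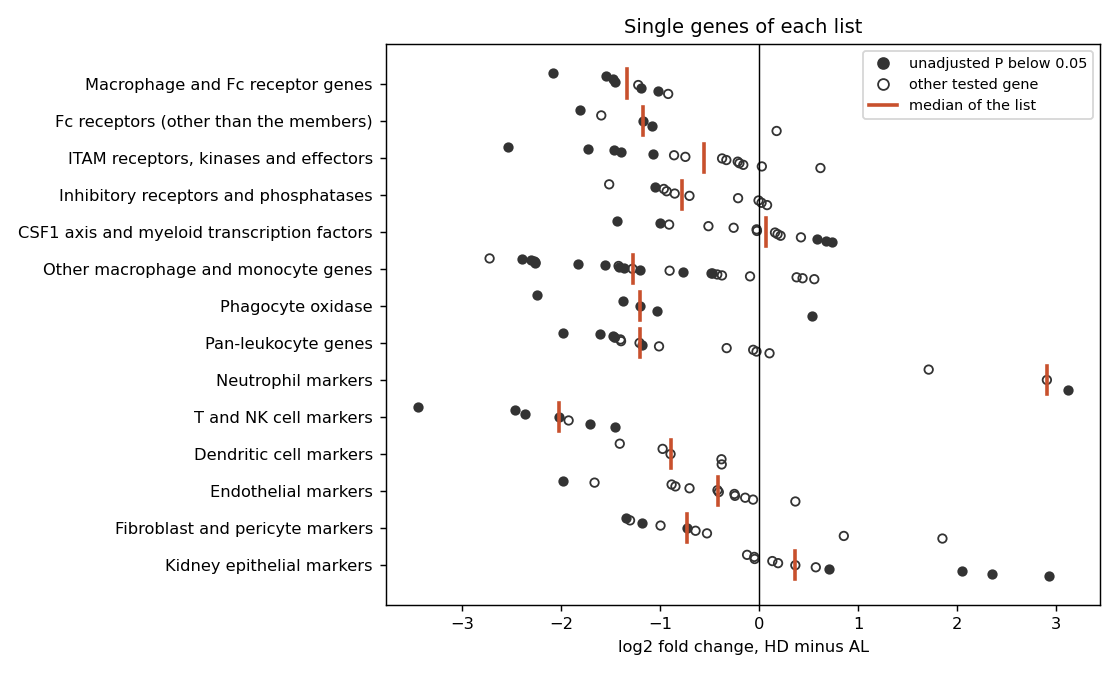
Log2 fold change (HD minus AL) of each tested gene by gene list, with filled points for an unadjusted edgeR *P* below 0.05, open points for the rest and orange bars for list medians. The macrophage and Fc receptor genes have a median of -1.34, the T and NK cell markers -2.03 and the kidney epithelial markers 0.37.

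Markers of other blood-derived cells were mostly lower as well. The pan-leukocyte genes had a median of -1.21, with 12 of 13 lower and 4 with an unadjusted *P* below 0.05. Ptprc (CD45) was at 11.3 ± 5.37 CPM in the AL group and 3.67 ± 1.14 CPM in the HD group (edgeR adjusted *P* = 0.368, DESeq2 adjusted *P* = 0.0133). All 7 tested T and NK cell markers were lower (median -2.03, or -1.01 without rat 71), but 5 of them reached the minimum only in the AL group, and Cd3e had 7, 34 and 8 counts against 0, 0 and 6. The 5 tested dendritic cell markers were lower too (median -0.90, or -0.43 without rat 71), none with an unadjusted *P* below 0.05, with Flt3 at 1.95 ± 1.02 and 0.690 ± 0.487 CPM. Of the B cell list only 1 gene could be tested, Pou2af1, named after its values were seen (log2 fold change 0.34). The mast cell marker Cpa3 had at most 0.16 CPM in any rat, and Kit alone of its list could be tested (-0.54).

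Markers of vessels and connective tissue were mostly lower too. Of 12 endothelial markers 11 were lower, with a median of -0.42 that ranged from -0.14 (without rat 64) to -0.95 (without rat 69) when single rats were left out. Among them was Plvap, a protein of fenestrated capillaries, which was at 51.8, 192 and 186 CPM in the AL rats and 14.0, 28.9 and 64.7 CPM in the HD rats. Pecam1, the defining marker of that list, was at 62.4 ± 25.8 and 38.0 ± 23.6 CPM. Of 9 fibroblast and pericyte markers 7 were lower (median -0.73, or -1.45 without rat 69). Dcn was at 86.0 ± 39.6 and 33.7 ± 5.92 CPM (edgeR adjusted *P* = 0.388, DESeq2 adjusted *P* = 0.00881). Pdgfra was at 80.1 ± 27.0 and 48.4 ± 9.99 CPM (edgeR adjusted *P* = 0.4225, DESeq2 adjusted *P* = 0.189). Summed over the list, the 10 macrophage and Fc receptor genes reached 58.4 to 162 CPM in the AL group and 28.4 to 63.1 CPM in the HD group. The endothelial markers summed to 213 to 580 and 143 to 450 CPM, and the fibroblast and pericyte markers to 197 to 501 and 122 to 312 CPM. In each of these 3 lists rat 61 had the lowest sum of the AL group and rat 69 the highest of the HD group. What part the makeup of the tissue sample had in the levels of the macrophage genes was not tested.

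Epithelial markers were mostly higher, with 8 of 11 higher and a median of 0.37 (0.22 without rat 64). Slc5a2, among the 8, reached the minimum count only in the HD group. Their sum was 8060 to 9300 CPM in the AL group and 9680 to 10800 CPM in the HD group. Besides Nphs1, the distal tubule genes Slc12a3 (24.3 ± 5.35 and 185 ± 121 CPM) and Calb1 (67.5 ± 40.4 and 281 ± 137 CPM) and the proximal tubule gene Slc34a1 (1751 ± 465 and 2852 ± 591 CPM) were higher in every HD rat. In DESeq2 the adjusted *P* was 0.00473 for Slc12a3, 0.0676 for Calb1 and 0.0997 for Slc34a1. In edgeR it was 0.338, 0.379 and 0.406.

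**Figure D4:**
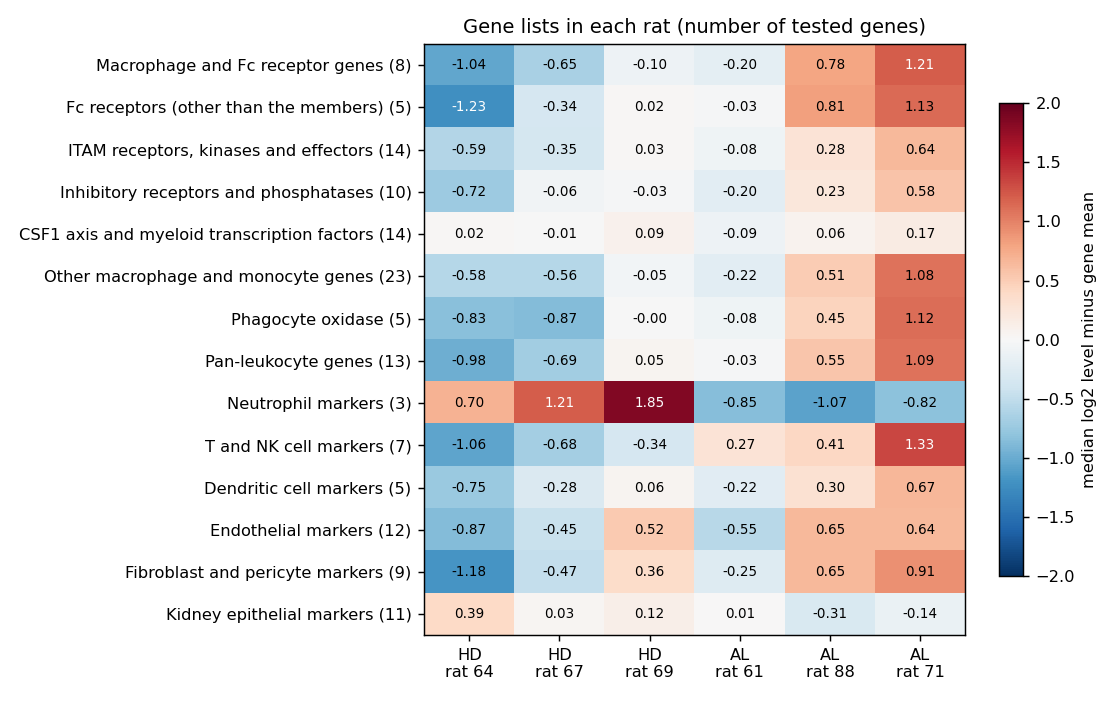
Median over each list of the log2 level minus the mean of the gene over the 6 rats, by rat, with the number of tested genes in parentheses and color from blue (low) to red (high). The macrophage and Fc receptor genes run from -1.04 in rat 64 to 1.21 in rat 71, with rat 61 of the AL group at -0.20 and rat 69 of the HD group at -0.10.

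The 8 tested genes outside the group whose levels followed the mean of the macrophage genes most closely over the 6 rats, out of 11545, were Fbn1 (Pearson's r 0.999), Aspn (0.997), Alox5, LOC686539, Loxl1 and Macf1 (0.996 each), and Olfml2b and Clec4a3 (0.995 each). Fbn1, Aspn, Loxl1 and Olfml2b encode extracellular matrix proteins or proteins that act on the matrix. Alox5 makes leukotrienes in leukocytes, and Clec4a3 is a C-type lectin of myeloid cells. Fbn1 was at 6.19, 22.4 and 16.1 CPM in the AL rats and 3.06, 4.7 and 7.71 CPM in the HD rats, with rat 61 again below rat 69 (-1.52, edgeR adjusted *P* = 0.406). Macf1, a linker of the cytoskeleton, had a log2 fold change of -0.34, with rat 61 at 196 and rat 69 at 195 CPM.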

How the data were processed

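The authors quantified reads with RSEM 1.1.15 against build rn5 and deposited, for each transcript in each rat, an estimated count, which is not normalized, and a TPM value, scaled to transcript length and library size. An aligner and read filters were not given in the sources used here. Estimated counts were summed per gene symbol and rounded. A gene was tested where 1 or more rats had a count of 30 or above, by edgeR's quasi-likelihood test (edgeR 4.0.16, R 4.3.3, TMM, diet as the only factor), adjusted by the Benjamini-Hochberg method over 11553 genes, with 0.05 as the threshold. The standard error is the absolute log2 fold change divided by the square root of F. DESeq2 1.42.0, limma 3.58.1 on log2(TPM + 0.5), other scalings, other minimum counts and the removal of single rats were alternatives. Exact permutation tests used log2(CPM + 0.5). The common coefficient of biological variation was 0.242. Scripts were tested on simulated data.

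Groups came from the diet in the labels. The 10 genes and the gene lists were chosen with earlier results of these data known. Named besides the 10 are up to 4 genes per list with the smallest unadjusted *P* below 0.05, the first gene of each cell type list, Ptprc, Itgb2, Emr1, and the 8 genes closest to the mean of the members. Some genes that this rule covers are not described here. Csf1, Il34, Spi1, Syk, Ptpn6, Irf8, Fcgrt, Fcer1a, Aqp2, Slc5a2, Kit, Pou2af1, Mpo and S100a9 are outside the rule and were chosen after their values were seen. So are Mertk, Hmox1 and Pla2g7, named because they were higher in the HD group. Promoter sequences are from RefSeq. Protein sequences were not used here. Names of genes are those of the files.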

Additional observations from a re-analysis of the deposited data

How the results depend on the processing

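All 8 tested genes stayed lower in the HD group under each of the alternatives that could be fitted, and their median log2 fold change ranged from -1.75 to -0.996. The number of genes in the whole table at an adjusted *P* of at most 0.05 was 0 in edgeR, 182 in DESeq2, 2 without a minimum count and 0 to 4 when single rats were left out. Of the 10 genes, 2 passed in DESeq2, Fcer1g (adjusted *P* = 0.022) and Aif1 (0.0129), and over all alternatives the adjusted *P* of these genes reached 0.916. With single rats left out, 3 to 7 of the genes had an unadjusted *P* below 0.05. Of all tested genes, 2.85% passed this mark in the lower direction without rat 64 and 9.35% without rat 69. Between 3 and 7 of the genes did not overlap between the groups. The 7 were found without rat 61, where 17.4% of all tested genes were lower without overlap, against 7.01% with all rats. Shares over all genes were not taken for every rat left out. With limma on TPM the number without overlap was 2, as Tyrobp was 19.8 TPM in rat 69 and 19.3 TPM in rat 61. The median of the growth factor and transcription factor list changed sign with library size as the only scaling (-0.0059) and ranged from -0.0035 to 0.19 with single rats left out. The single tested B cell marker ranged from -0.051 to 0.55 in the same way. The cause of these differences was not tested. No paired analysis was possible because the labels give no numbers shared between the groups. Counts under 30 left Cd163 and Fcgr2b untested, and 3 rats per group limit the exact test to *P* values of 0.1 or above.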

Other observations

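In the neutrophil list the fitted levels of the tested genes were higher in the HD group, the opposite direction to the macrophage genes. Of its 11 genes 3 could be tested, 2 of which reached the minimum count only in the HD group. Mmp9, a gelatinase of neutrophils and other cells, was at 0.953, 3.21 and 2.32 CPM in the AL rats and 10.2, 14.7 and 32.3 CPM in the HD rats, with no overlap (log2 fold change 3.12, standard error 0.56, edgeR adjusted *P* = 0.327, DESeq2 adjusted *P* = 1.81e-06). The granule gene Mpo was at 4.6 and 4.8 CPM in rats 67 and 69 but at 0.0849 CPM in rat 64. The calcium-binding gene S100a9 was instead at 4.67 CPM in rat 64 and at 0.7 and 0.384 CPM in rats 67 and 69. The 3 genes therefore did not pick out the same rats.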
